A study of Solanum lycopersicum with 6 samples.

Results

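Unannotated transcripts are RNAs that are assembled from sequencing reads but match no gene of the annotation used. Such sets can hold long non-coding RNAs, small or missed protein-coding genes, transcribed transposable elements and fragments of known genes such as extended ends or retained introns. Long non-coding RNAs of plants are as a rule less abundant than coding transcripts, and some act in the control of other genes. The deposited table marks these rows with identifiers that begin with BGI_novel, while annotated tomato genes carry Solyc identifiers.

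The rows described here were all those with a BGI_novel identifier and a mean of at least 1 FPKM over the 6 libraries. FPKM expresses fragments relative to transcript length and sequencing depth. Of 335 BGI_novel rows, 231 reached this limit and 104 did not. They were 231 of the 18802 loci that reached it in the whole table, the others being 18571 Solyc loci. The transcripts were thus chosen by their mean FPKM over both cultivars, so levels are given below as a description without a test. The smallest means inside the limit were 1.003, 1.008 and 1.012 FPKM (G000282, G000058 and G000059, short for BGI_novel_G000282 and so on). The largest means outside it were 0.990, 0.975 and 0.958 FPKM (G000140, G000268 and G000132).

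The libraries were made from axillary buds, the shoots formed in the leaf axils, of greenhouse tomato plants of 2 cultivars. The labels name them compound raceme (3 libraries) and monomaker (3 libraries) and give no allele, treatment, plant age or other difference between them. They do not tell whether replicate libraries stem from different plants, so the p-values measure a spread between libraries that may be technical. The table holds no counts, so the depth of the libraries is unknown.

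Across the Solyc loci, monomaker 1 correlated with compound raceme 1 (Pearson r = 0.953 of log2(FPKM + 1) over 18571 loci) more closely than with monomaker 2 (0.935) or monomaker 3 (0.916). Across the 231 BGI_novel transcripts its order was another, with 0.868 for monomaker 3, 0.830 for monomaker 2 and 0.794 for compound raceme 1. Rows are not independent replicates, and all these values share the same libraries. Of 15 marker genes, named from published locus assignments as recalled, RefSeq places 14 on the chromosome of their identifier. The 5 bud and meristem markers summed to 61.8, 82.5 and 67.6 FPKM in compound raceme 1 to 3 and to 60.4, 39.97 and 21.6 FPKM in monomaker 1 to 3. BRC1B made up most of each sum and was not called (log2 fold change 1.19, adjusted p = 0.113 in limma). BRC1A, BL and TKN2 had log2 fold changes of 0.41, -0.31 and -0.06 and were not called either, and LS was too low to be fitted. The 5 floral organ markers summed to 52.3 to 82.6 FPKM in compound raceme and 48.1 to 55.2 FPKM in monomaker. Most of each sum was TM6, with 49.45, 80.11 and 66.04 FPKM in compound raceme, against 31.07, 40.98 and 36.18 FPKM in monomaker. In limma TM6 was not called (log2 fold change 0.82, adjusted p = 0.0842), nor was TAG1 (0.06, adjusted p = 0.866). TM5, TPI and TM29, which encode MADS-box regulators of flower development, fell in compound raceme (adjusted p = 0.0193, 0.0193 and 0.0184 in limma). The 2 markers of dividing cells summed to 10.9 to 23.4 FPKM in compound raceme and 98.2 to 168 FPKM in monomaker, and both fell. The 2 leaf photosynthesis markers summed to 270 to 761 FPKM in compound raceme and 734 to 5357 FPKM in monomaker, so the cultivars overlapped. Most of each sum was RBCS1, and neither RBCS1 nor CAB12 was called (adjusted p = 0.153 and 0.0946 in limma). The trichome marker TPS5 had 35.6 to 69.9 FPKM in compound raceme and 16.3 to 23.9 FPKM in monomaker. It was called higher in compound raceme (log2 fold change 1.44, adjusted p = 0.0487 in limma). The part that differing cell content had in the results below was not tested, and in whole buds fewer cells of a type and less RNA per cell cannot be told apart.

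The BGI_novel transcripts were mostly low. Their median mean level was 3.18 FPKM, with quartiles of 1.72 and 6.78 FPKM, against a median of 12.8 FPKM for Solyc loci under the same limit, with quartiles of 5.34 and 29.7 FPKM. At least 10 FPKM was reached by 37 of the 231 (16.0%), against 57.7% of the Solyc loci. The units differ, since the rows of 5699 Solyc loci with 2 rows were summed, while overlapping BGI_novel rows were kept apart. By library, the median transcript stood at 3.85, 3.04 and 3.13 FPKM in compound raceme 1 to 3 and at 2.92, 2.59 and 2.65 FPKM in monomaker 1 to 3. Every compound raceme library therefore lay above every monomaker library on this value. The median Solyc locus had 12.7, 11.8 and 12.6 FPKM in compound raceme buds, against 13.26, 12.4 and 11.6 FPKM in monomaker buds, where the cultivars overlapped.

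Together the transcripts held 0.341%, 0.284% and 0.279% of the summed FPKM of compound raceme 1 to 3 and 0.281%, 0.210% and 0.296% of monomaker 1 to 3. A single transcript, G000238, made up a large share of these sums. Without it the shares were 0.244%, 0.203% and 0.229% in compound raceme and 0.198%, 0.176% and 0.188% in monomaker, and the cultivars no longer overlapped.

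Between libraries of a cultivar the median BGI_novel transcript had a larger spread than the median Solyc locus. Their median SD within cultivars was 0.35 on the log2(FPKM + 1) scale, against 0.26 for Solyc loci. It was 0.32 with overlapping BGI_novel rows summed, and 0.27 for Solyc rows as deposited. Spread depends on level, so the 2 classes were also set side by side within ranges of mean FPKM. At 1 to 2 FPKM the median SD was 0.36 for 67 BGI_novel transcripts and 0.32 for 1572 Solyc loci. From 2 to 5 FPKM it was 0.34 and 0.31 (87 and 2766), from 5 to 20 FPKM 0.33 and 0.24 (62 and 7572), and from 20 FPKM up 0.37 and 0.23 (15 and 6661). Within single cultivars the order did not hold throughout. At 1 to 2 FPKM the monomaker median SD was 0.31 for BGI_novel transcripts and 0.32 for Solyc loci, and at 2 to 5 FPKM the compound raceme median SD was 0.25 for both. The difference between the classes has no test here. Values of 0 in at least 1 library occurred at 13 BGI_novel transcripts (5.63%) and at 1.30% of Solyc loci. These shares also depend on level. They were 11.9% and 8.78% at 1 to 2 FPKM, 3.45% and 2.57% at 2 to 5 FPKM, and 3.23% and 0.343% at 5 to 20 FPKM, where 2 BGI_novel transcripts had such a value.

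**Figure D1:**
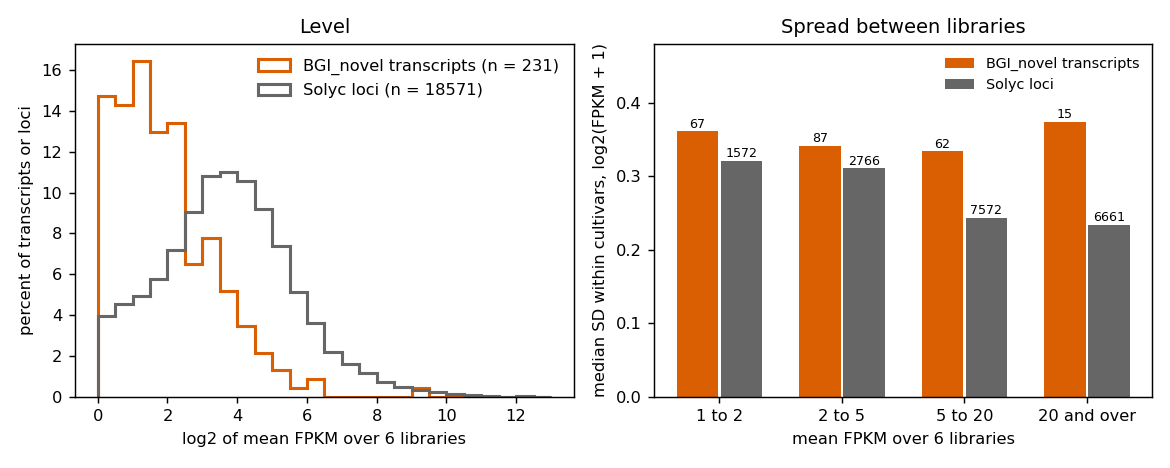
Left, the distribution of mean FPKM over 6 libraries (log2 axis) for 231 BGI_novel transcripts and 18571 Solyc loci, as a percent of each class. Right, bars from 0 give the median SD within cultivars of log2(FPKM + 1) by range of mean FPKM, with the number of transcripts or loci above each bar. The BGI_novel transcripts peak at low levels, and their bar, which pools both cultivars, is the higher of the pair in all 4 ranges.

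Between the cultivars, 12 of the 231 BGI_novel transcripts (5.19%) were called in limma at an adjusted p below 0.05, against 3.27% of all 18802 loci tested. In compound raceme buds 9 rose (3.90%, against 0.75% of all loci) and 3 fell (1.30%, against 2.52% of all loci). Whether these shares differ was not tested. In 11 of the 12 the mean of the lower cultivar was below 1 FPKM, so these passed the limit through the cultivar in which they were high, and their count supports nothing by itself. Of the 194 transcripts with at least 1 FPKM in both cultivars, limma called 1 (G000077) at an adjusted p below 0.05 (0.515%), against 2.63% of the 17694 Solyc loci under the same condition. An unadjusted p below 0.05 was found at 38 of them (19.6%), against 24.4% of those Solyc loci. Both shares lay below those of the Solyc loci, unlike the share of calls over all 231. The number of calls moved with the library left out. It was 1 (0.433%) when compound raceme 2, compound raceme 3 or monomaker 2 was left out, against 0.0323%, 0.0323% and 0.0377% of Solyc loci. It was 3 (1.30%) without monomaker 3, against 0.0646% of Solyc loci, and 11 (4.76%) without compound raceme 1, against 3.35%. Without monomaker 1 it was 21 (16 higher, 5 lower), and this 9.09% lay below the 10.8% of Solyc loci called in the same fit. Leaving out a library also leaves 2 against 3.

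**Figure D2:**
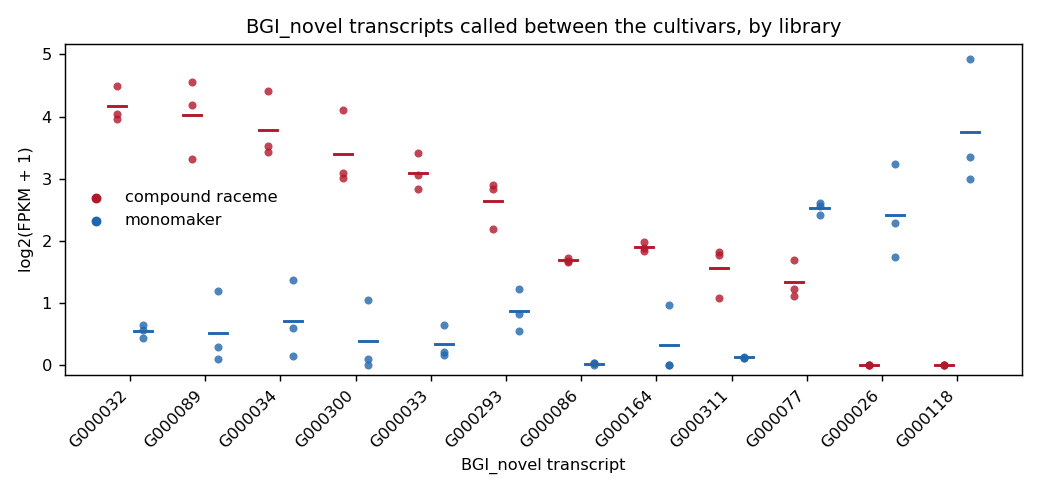
log2(FPKM + 1) of the 12 called BGI_novel transcripts, 1 dot per library and a line at the mean of each cultivar, compound raceme left of monomaker. The cultivars do not overlap in any of the 12; 9 are higher and 3 lower in compound raceme.

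The clearest difference was at G000032, an unannotated transcript of chromosome 1 (70423770 to 70425820 of SL3.0, plus strand). It had 21.5, 14.6 and 15.4 FPKM in compound raceme 1 to 3 and 0.48, 0.57 and 0.36 FPKM in monomaker 1 to 3. It was thus abundant in all libraries of one cultivar and close to 0 in all of the other. The log2 fold change was 3.61 (SE 0.20, adjusted p = 0.00169), and the call held with each of the 6 libraries left out in turn.

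The next 2 BGI_novel transcripts along the chromosome showed the same direction. G000033 (70543575 to 70546709, plus strand), which starts 120 kb further on, had 9.62, 6.12 and 7.31 FPKM in compound raceme buds, against 0.16, 0.12 and 0.56 FPKM in monomaker buds (log2 fold change 2.76, SE 0.24, adjusted p = 0.0177). G000034 (70619788 to 70622075, plus strand), 196 kb from the start of G000032, had 20.3, 9.77 and 10.5 FPKM in compound raceme buds, against 0.11, 0.51 and 1.6 FPKM in monomaker buds (log2 fold change 3.08, SE 0.39, adjusted p = 0.0206). In both, every compound raceme library was above every monomaker library. These 2 calls were lost on leaving out compound raceme 2, compound raceme 3 or monomaker 2, and G000034 lost its call without monomaker 3 as well.

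Of the rows around them, none was called higher in compound raceme. G000035, 334 kb from the start of G000032 on the same strand, had 19.6, 15.2 and 10.2 FPKM in compound raceme buds, against 5.13, 9.40 and 24.0 FPKM in monomaker buds, and the cultivars overlapped (adjusted p = 0.637). Solyc01g060415, the nearest annotated locus with coordinates on the right, fell in compound raceme, with 1.34, 0.77 and 0.68 FPKM there and 3.26, 7.84 and 6.05 FPKM in monomaker (log2 fold change -1.75, adjusted p = 0.0382). On the left, Solyc01g060260 had 7.26, 6.68 and 6.67 FPKM in compound raceme buds, against 5.76, 5.07 and 5.22 FPKM in monomaker buds, apart but not called (log2 fold change 0.31, adjusted p = 0.218). Solyc01g060280 and Solyc01g060390, whose numbers lie between these loci but which carry no coordinates, had log2 fold changes of -0.07 and -0.38 (adjusted p = 0.808 and 0.263). Whether the transcripts are copies of each other could not be read from the table, which holds no sequence.

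**Figure D3:**
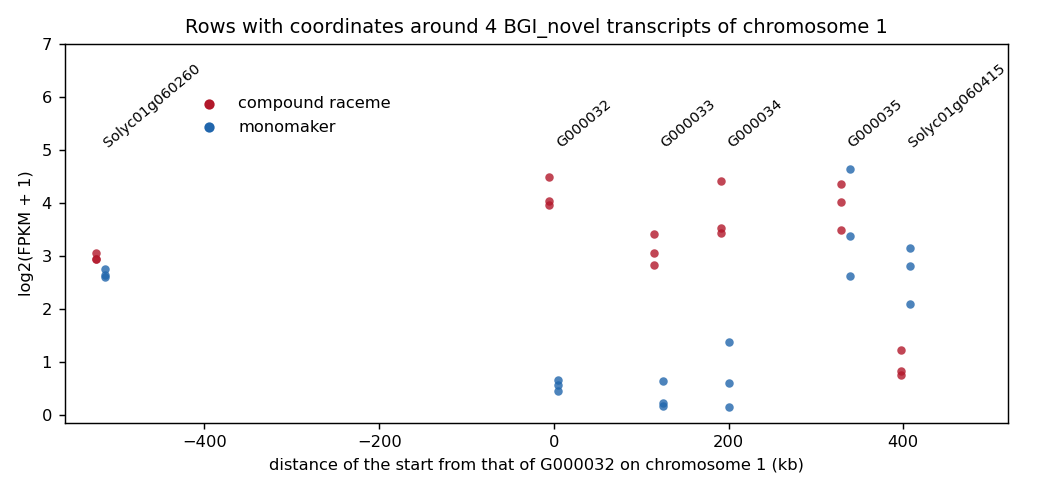
log2(FPKM + 1) by library (dots) for the rows with coordinates around G000032 to G000035, against the distance of each start from that of G000032 in kb, compound raceme drawn left of monomaker. G000032, G000033 and G000034 separate the cultivars with compound raceme high, G000035 does not, and Solyc01g060415 is lower in compound raceme.

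Of the other 6 that rose, 2 lie on chromosome 3 and 2 on chromosome 11. G000089 (chromosome 3, 53916093 to 53917037, plus strand) had 8.95, 17.3 and 22.4 FPKM in compound raceme buds, against 0.22, 1.28 and 0.07 FPKM in monomaker buds (log2 fold change 3.49, SE 0.41, adjusted p = 0.0194). G000086 (chromosome 3, 52307122 to 52309364, plus strand) was low but even, with 2.17, 2.19 and 2.32 FPKM in compound raceme buds, against 0, 0.03 and 0.03 FPKM in monomaker buds (log2 fold change 1.66, SE 0.20, adjusted p = 0.0194). On the log2 scale its compound raceme libraries lay closer together than those of the other 8 that rose. G000087, an unannotated transcript between these 2, was not called, with 1.0, 0 and 0.39 FPKM in compound raceme buds, against 2.28, 0.97 and 2.63 FPKM in monomaker buds (adjusted p = 0.143).

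G000300 (chromosome 11, 44753658 to 44756622, minus strand) had 16.3, 7.03 and 7.52 FPKM in compound raceme buds, against 1.08, 0 and 0.07 FPKM in monomaker buds (log2 fold change 3.02, SE 0.41, adjusted p = 0.0220). The nearest Solyc row with coordinates was 2780 kb away, the largest such distance among the called transcripts. G000293 (chromosome 11, 14628049 to 14634124, minus strand) had 6.43, 6.15 and 3.58 FPKM in compound raceme buds, against 0.78, 0.46 and 1.35 FPKM in monomaker buds (log2 fold change 1.77, SE 0.28, adjusted p = 0.0291). Both were higher in each compound raceme library than in any monomaker library. Among G000089, G000086, G000300 and G000293, 0 kept the call in limma with compound raceme 2, compound raceme 3, monomaker 2 or monomaker 3 left out, and G000293 was also lost without compound raceme 1.

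The last 2 that rose overlap other rows, among which reads may be split. G000311 (chromosome 12, 6024405 to 6025418, plus strand) lies within Solyc12g015970, at its right end and on its strand. It had 2.44, 2.54 and 1.12 FPKM in compound raceme buds, against 0.10, 0.09 and 0.09 FPKM in monomaker buds (log2 fold change 1.43, SE 0.27, adjusted p = 0.0451). Solyc12g015970 itself had 38.6, 36.4 and 53.5 FPKM in compound raceme buds, against 54.3, 42.7 and 82.4 FPKM in monomaker buds and was not called (log2 fold change -0.44, adjusted p = 0.341). G000164 (chromosome 6, 34906147 to 34922687, minus strand) had 2.71, 2.95 and 2.58 FPKM in compound raceme buds, against 0, 0.96 and 0 FPKM in monomaker buds (log2 fold change 1.58, SE 0.31, adjusted p = 0.0486). It shares its whole interval with G000162 and G000163, which were not called. G000162 had 20.99, 18.2 and 17.7 FPKM in compound raceme buds, against 15.2, 15.5 and 11.6 FPKM in monomaker buds (adjusted p = 0.176). G000163 overlapped between the cultivars, with 8.32, 5.59 and 5.35 FPKM in compound raceme buds, against 7.33, 5.92 and 6.15 FPKM in monomaker buds (adjusted p = 0.943). The call of G000164 held in 6 of 16 alternatives and that of G000311 in 10 of 17, and of the 6 libraries only the removal of monomaker 1 left either call in place.

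Of the 3 transcripts that fell, 2 were listed at 0 in every compound raceme library. G000118 (chromosome 4, 63006648 to 63007657, plus strand) had 0, 0 and 0 FPKM in compound raceme buds, against 9.22, 6.98 and 29.3 FPKM in monomaker buds (adjusted p = 0.0206). G000026 (chromosome 1, 57195129 to 57223419, plus strand) had 0, 0 and 0 FPKM in compound raceme buds, against 3.89, 8.46 and 2.33 FPKM in monomaker buds (adjusted p = 0.0291). No fold is given for them, since a listed 0 may also be a failed estimate. G000077 (chromosome 3, 7204461 to 7205771, plus strand) was expressed in both cultivars, at 2.25, 1.33 and 1.16 FPKM in compound raceme buds, against 5.14, 4.92 and 4.33 FPKM in monomaker buds (log2 fold change -1.19, SE 0.21, adjusted p = 0.0396). Its cultivars did not overlap. Without compound raceme 2, compound raceme 3 or monomaker 2 none of these 3 kept its call (adjusted p of the 3 from 0.0140 to 0.169 over the 6 libraries left out), G000118 alone kept it without monomaker 3, and G000026 also lost it without compound raceme 1.

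The opposite case, 0 in every monomaker library, occurred at 2 transcripts, neither of which was called. G000095 (chromosome 4, 958858 to 965728, plus strand) had 2.56, 1.54 and 16.8 FPKM in compound raceme (adjusted p = 0.0996). G000219 (chromosome 9, 9213813 to 9222605, minus strand) had 4.24, 1.08 and 2.06 FPKM there (adjusted p = 0.0567). Of the 231 BGI_novel transcripts, 2 were thus listed at 0 in all compound raceme libraries and 2 in all monomaker libraries. Among the 18571 Solyc loci these counts were 23 and 7, a smaller share in each case. Such rows pass the limit only through the other cultivar. For 0 in all compound raceme libraries the order did not hold in each range of level. At 1 to 2 FPKM, 0 of 67 BGI_novel transcripts and 12 of 1572 Solyc loci were so listed. From 2 to 5 FPKM these were 1 of 87 and 6 of 2766, and from 5 to 20 FPKM 1 of 62 and 2 of 7572. From 20 FPKM up they were 0 of 15 and 3 of 6661. The classes differ in level, and the difference in shares was not tested.

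Most of the remaining transcripts had somewhat higher values in compound raceme. Of all 231, 167 (72.3%) had a fold above 0, against 53.7% of Solyc loci, and the median log2 fold change was 0.22, against 0.04. Compound raceme and monomaker libraries were fully apart at 64 transcripts (27.7%, against 31.7% of all loci). Of these, 56 were higher in compound raceme (24.2%, against 16.4% of all loci) and 8 lower (3.46%, against 15.3% of all loci). The 7001 Solyc loci with coordinates lay nearer, with 59.4% above 0 and a median log2 fold change of 0.09. Of them 19.7% were higher and 12.4% lower in compound raceme without overlap. The 231 include 37 that averaged below 1 FPKM in a cultivar and passed the limit through the other. Among the 194 with at least 1 FPKM in both cultivars, 74.2% had a fold above 0, against 54.3% of the 17694 such Solyc loci. Without overlap, 38 of these 194 were higher in compound raceme (19.6%, against 16.3% of those Solyc loci). Another 4 were lower (2.06%, against 14.4%). By range of level the share above 0 was 70.1% at 1 to 2 FPKM, 67.8% at 2 to 5, 87.1% at 5 to 20 and 46.7% from 20 FPKM up, against 49.6%, 49.8%, 55.5% and 54.1% of Solyc loci. With 1 library left out the share was 65.4% to 78.4%, against 49.4% to 57.7% of Solyc loci, and with the libraries scaled to equal sums it was 77.1%, against 60.8%. The unadjusted limma p was below 0.05 at 57 of the 231 (24.7%) and at 25.7% of Solyc loci. These shares describe the 2 classes in 1 set of libraries, and the transcripts of a region share reads, so they carry no test.

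**Figure D4:**
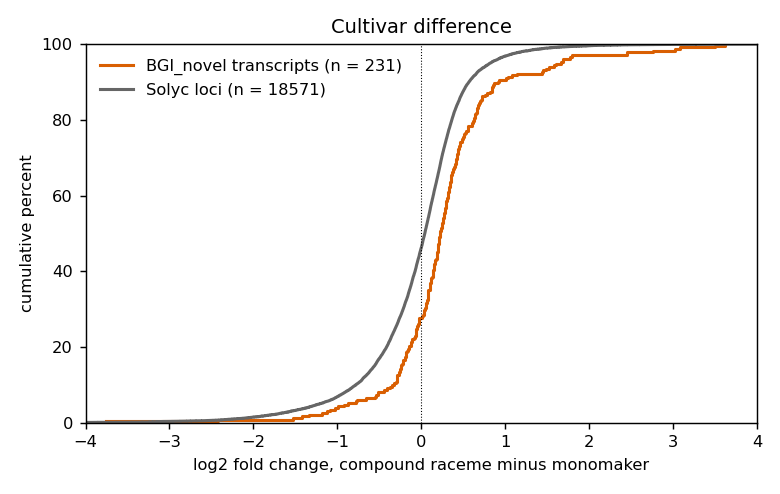
Cumulative percent of 231 BGI_novel transcripts and 18571 Solyc loci by log2 fold change, compound raceme minus monomaker, drawn from -4 to 4. The curve of the BGI_novel transcripts lies to the right near 0, with a median of 0.22 against 0.04.

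The most abundant transcripts did not pass the test. G000238 (chromosome 9, 65788859 to 65789675, minus strand) had 654, 556 and 349 FPKM in compound raceme buds, against 592, 252 and 808 FPKM in monomaker buds (log2 fold change 0.03, SE 0.47, adjusted p = 0.977). Low and high libraries occurred in both cultivars. It starts at the same base as Solyc09g072750 and lies within it on the same strand, and that locus had 3448, 3337 and 1734 FPKM in compound raceme buds, against 3499, 1579 and 4115 FPKM in monomaker buds. In percent of the Solyc locus, G000238 stood at 19.0, 16.7 and 20.1 in compound raceme and at 16.9, 15.9 and 19.6 in monomaker, so both rows moved together, and reads may be split between them.

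G000308 (chromosome 12, 2359718 to 2362230, plus strand) had 35.9, 19.8 and 40.9 FPKM in compound raceme buds, against 46.0, 93.1 and 173 FPKM in monomaker buds (log2 fold change -1.53, SE 0.49, adjusted p = 0.125). Every monomaker library was above every compound raceme library, monomaker 1 by the least, and without monomaker 1 it was called (adjusted p = 0.0335). It overlaps Solyc12g009080 on its own strand and Solyc12g009070 on the other. These had log2 fold changes of -1.40 and -1.80 (adjusted p = 0.156 and 0.0754), and no label or header states how strand was treated in counting. G000307, on the minus strand of almost the same interval, had 9.38, 3.72 and 4.85 FPKM in compound raceme buds, against 4.83, 4.60 and 3.49 FPKM in monomaker buds (adjusted p = 0.533).

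G000009 and G000010 (chromosome 1, 3623767 to 3626106, minus strand) share 1 interval. G000009 had 50.6, 44.2 and 53.0 FPKM in compound raceme buds, against 65.8, 107 and 67.4 FPKM in monomaker buds (adjusted p = 0.128). G000010 had 25.2, 19.6 and 26.6 FPKM in compound raceme buds, against 29.0, 54.1 and 15.8 FPKM in monomaker buds (adjusted p = 0.671). The cultivars were apart at G000009 and overlapped at G000010. G000065, G000049, G000231, G000016 and G000091 averaged 30.2 to 55.0 FPKM over the 6 libraries, with log2 fold changes of -0.32 to 0.26 and adjusted p of 0.273 to 0.764. G000287 (chromosome 11, 1373483 to 1374716, minus strand) had 15.01, 24.2 and 103 FPKM in compound raceme buds, against 9.55, 8.92 and 1.47 FPKM in monomaker buds. It was higher in each compound raceme library, above all in compound raceme 3, but was not called (log2 fold change 2.45, SE 0.82, adjusted p = 0.132).

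**Figure D5:**
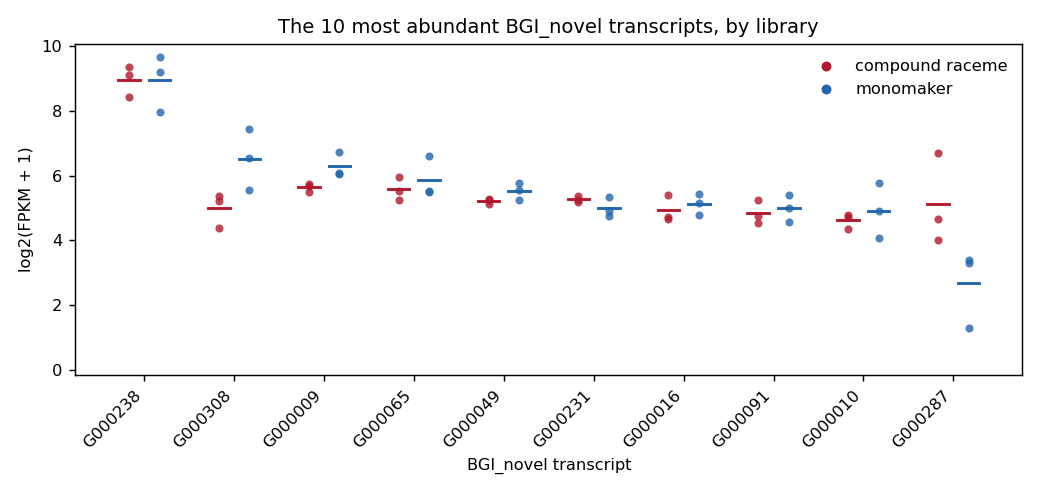
log2(FPKM + 1) of the 10 BGI_novel transcripts with the highest mean FPKM, 1 dot per library and a line at the mean of each cultivar, compound raceme left of monomaker. G000238 stands above the others in both cultivars, and none of the 10 was called.

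Some transcripts differed widely between libraries of one cultivar. G000305 (chromosome 11) had 19.4, 1.35 and 20.4 FPKM in compound raceme buds, against 17.8, 0.25 and 8.59 FPKM in monomaker buds, so library 2 was lowest in both. G000068 (chromosome 2) had 4.08, 0.21 and 0.35 FPKM in compound raceme buds, against 7.49, 0.31 and 6.17 FPKM in monomaker buds. G000013 and G000014 cover the same interval of chromosome 1 (11908325 to 11910544) on opposite strands. G000013 had 0, 0 and 3.52 FPKM in compound raceme buds, against 0.05, 12.1 and 0 FPKM in monomaker buds, and G000014 had 16.5, 17.4 and 3.52 FPKM in compound raceme buds, against 23.3, 12.1 and 45.9 FPKM in monomaker buds. In compound raceme 3 and monomaker 2 both rows thus held the same value, and in the other 4 libraries nearly all signal was in G000014. Their sums were 16.5, 17.4 and 7.04 FPKM in compound raceme buds, against 23.3, 24.3 and 45.9 FPKM in monomaker buds.

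Other BGI_novel rows overlapped as well, on the same or the opposite strand. The 231 transcripts lay in 190 separate regions, of which 166 held 1 transcript and 24 held 2 to 6, and 65 transcripts shared a region. With the FPKM of overlapping BGI_novel rows summed, 195 regions were tested and 11 called (5.64%, against 3.24% of Solyc loci in the same fit), 8 higher and 3 lower. A Solyc row with coordinates was overlapped by 18 transcripts, 15 of them on its strand, and 7304 of the Solyc rows carry coordinates, so overlap with the others is not known. The median genomic length from start to end was 2755 bases, with a range of 237 to 44662. All 12 chromosomes held some, 12 to 29 each, and 6 lay on sequence not placed on a chromosome; called transcripts lay on 6 chromosomes.

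The strand was given for 181 transcripts and listed as a dot for 50, which were shorter, with a median length of 846 bases. All 12 calls were among the 181. Of the 50, limma called 0, where 3.27% of all loci were called. An unadjusted p below 0.05 was found at 17 of the 50 (34%, against 25.7% of all loci), and 15 were higher in compound raceme without overlap (30.0%, against 16.4% of all loci). Of the 181 with a strand, 40 had such a p (22.1%) and 41 were higher in compound raceme without overlap (22.7%). Below 1 FPKM in a cultivar were 9 of the 50 and 28 of the 181. The differences between these groups were not tested.

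By pattern over the 6 libraries, the BGI_novel transcripts most like G000032 were G000086, G000033 and G000300 (Pearson r of log2(FPKM + 1) = 0.994, 0.989 and 0.967). The Solyc loci most like it were Solyc12g040520, Solyc04g081610 and Solyc11g050880 (r = 0.999 each). Solyc04g081610, for example, reached 17.1, 12.6 and 11.6 FPKM in compound raceme buds, while each monomaker library listed it at 0. Most like G000118 were G000190, G000077 and G000049 (r = 0.940, 0.881 and 0.862) and the Solyc loci Solyc03g005775, Solyc06g076630 and Solyc03g097050 (r = 0.999, 0.998 and 0.994). These r rank likeness over 6 libraries in 2 cultivars and carry no test.

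The authors' deposited table gives its own ratio and q-value for each row. By the q-value of the authors' deposited table, 28 of the 231 transcripts (12.1%) passed at 0.05, against 13.7% of all rows with a mean of at least 1 FPKM. Of the 28 in the authors' deposited table, 22 were higher in compound raceme (9.52%, against 4.72% of all rows) and 6 lower (2.60%, against 8.96%). The 28 of the authors' deposited table included 11 of the 12 limma calls (91.7% of them, 39.3% of the 28). The exception was G000164, with a q-value of 0.617 in the authors' deposited table. Both lists come from the same libraries, so the shared calls are no independent support. Some of the 28 of the authors' deposited table, G000032 among them, passed the limit through the cultivar in which they were high. Their shares by direction therefore support nothing by themselves. G000095 and G000219 had q-values of 5.11e-08 and 2.27e-05 in the authors' deposited table, and G000287 and G000308 had 0.0110 and 0.0128.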

How the data were processed

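Trizol RNA of axillary buds was sequenced on the BGI500 platform, per the labels' protocols. Tools named, without roles, in the submitters' processing notes are DESeq2 1.4.5, RSEM 1.2.12, Bowtie2 2.2.5 and HISAT2 2.0.4. The authors deposited FPKM values to 2 decimals in 1 table of 31139 rows, per the file headers. Their log2 ratio, p-value and q-value per row are deposited there too, per the file headers. Assembly, filters and strand use are not given in the sources used here. BGI_novel rows carry SL3.0 coordinates but no sequence.

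The FPKM of 5699 Solyc loci with 2 rows were summed; BGI_novel rows were used as deposited. Loci averaging 1 FPKM or more were transformed to log2(FPKM + 1) and fitted together in limma 3.58.1 (R 4.3.3) with an intensity trend and the cultivar as the only term. P-values were adjusted by Benjamini and Hochberg over 18802 loci and called below 0.05; folds are compound raceme minus monomaker and understate changes of low transcripts. The fit was tested on simulated data, in which changes were planted only above a set mean level. That does not show how changes below this level are recovered. The table holds no counts, so the test planned for normalized values applied. No interval or detection limit is given, since depth is unknown.

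Transcripts were named by rule: called ones, the 10 highest, those at 0 in a whole cultivar, those nearest the limit, the 5 with the widest range within a cultivar, and those most like the leading call in each direction. G000035, G000087, G000162, G000163, G000307 and G000014 were added after their values were seen. Members and lists were chosen with earlier results of these data known. Alternatives were the pseudocount, filter, scaling, variance model, row handling, the replicate number and each library left out; 2 more, overlapping rows summed and both number 1 libraries left out, were chosen after seeing the data.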

Additional observations from a re-analysis of the deposited data

How the results depend on the processing

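No called transcript changed direction in any alternative. The 12 calls (9 higher, 3 lower) and the median log2 fold change of 0.22 stayed within 1.5 times or the spread between libraries in several settings. These were other pseudocounts, scalings, variance models and row handling. They gave 11 to 13 calls (5.19% to 5.64%, against 2.89% to 3.55% of Solyc loci). A limit of 5 FPKM left 77 transcripts, with a median level of 9.07 FPKM. Of these, 5 were called (6.49%, against 2.70% of Solyc loci), 4 higher and 1 lower. Without overlap were 23 (29.9%, against 32.6% of Solyc loci). Without a limit the median level was 1.84 FPKM and 14 transcripts were called (4.18%, against 1.59% of Solyc loci), 2 of them lower. In the main fit 11 of the 12 called averaged below 1 FPKM in a cultivar, so these shares of calls support nothing by themselves. With at least 1 FPKM in both cultivars, the main fit called 0.515% of the transcripts, against 2.63% of such Solyc loci. A pseudocount of 0.1 gave a median SD of 0.45. Leaving out 1 library gave 1 to 21 calls, 1 to 16 higher and 0 to 5 lower, 78 to 98 transcripts without overlap (33.8% to 42.4%, against 36.1% to 52.2% of Solyc loci), a median log2 fold change of 0.13 to 0.29, a median SD of 0.31 to 0.37, a median level of 3.01 to 3.26 FPKM, and 0.0323% to 10.8% of Solyc loci called. Without both number 1 libraries there were 17 calls (7.36%, against 10.2% of Solyc loci), 12 higher and 5 lower. In that fit 126 were without overlap (54.5%, against 64.4% of Solyc loci) and the median SD was 0.25. Summing overlapping rows gave a median level of 3.67 FPKM. With the replicate number as a block, limma called 0 transcripts (0 higher, 0 lower) and 0% of Solyc loci, with 59 transcripts at an unadjusted p below 0.05. Deviations of same-numbered libraries from their cultivar means correlated at 0.03, 0.06 and 0.10 across the loci tested. With 3 libraries per cultivar these values cannot tell whether libraries of the same number were handled together. G000032 kept its call in 17 of 18 alternatives (adjusted p up to 0.0524), and the other called transcripts in 6 to 14. Of 18 other named transcripts, tried 312 times in all, 6 trials gave a call and 10 changed the sign. Causes were not tested. Depth is unknown and limits what the lowest values can show.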
